A study of Mus musculus with 4 samples.

Results

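The genes described here are 32 of the 56980 genes in the count files. They encode the transporters and enzymes that carry glucose to lactate, the enzymes that steer pyruvate at the mitochondrion, and the factors and targets of the response to low oxygen. The members were taken from a list of symbols that was proposed with the TKO against Ctrl values of these same libraries in view. Levels in TKO against Ctrl, and their differences between cell layers, are therefore given below as a description of these libraries, with no p for any member. All 32 symbols were found, each with 1 gene ID.

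The study asked what the enzymes that place methyl groups on histone H3 lysine 9 do in the embryonic mouse epidermis. 4 single-cell libraries (10x Genomics 3' chemistry) were made from dorsal skin of embryos labelled E16.5, each from 1 embryo, after sorting cells positive for Epcam and α6 integrin. Both Ctrl embryos were Suv39h1 f/f, Suv39h2-/-, Setdb1 f/f and K14CreERT2-, and both TKO embryos had the same floxed and null alleles with K14CreERT2+. All 4 embryos received Tamoxifen. Ctrl therefore also lacked Suv39h2, and the recombinase was driven by the keratin 14 promoter, which is active in the basal cells of the epidermis. The sources used here call the recombination mosaic, and the list of litters gives E15.5 where the labels give E16.5.

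Glycolysis splits glucose into pyruvate in the cytosol and can run without oxygen when lactate dehydrogenase turns pyruvate into lactate. The transcription factor HIF-1, made of Hif1a and Arnt, is destroyed through the prolyl hydroxylases Egln1 to Egln3 when oxygen is present, and raises many glycolytic genes when oxygen is short. In stratified epidermis, basal cells divide on the basement membrane and the suprabasal cells above them differentiate, away from the dermal vessels.

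The files held 19789 barcodes and 309291898 UMIs, where a UMI marks 1 captured RNA molecule. After filters on genes and mitochondrial share, removal of 457 predicted doublets and removal of other cell types, 9203 keratinocytes remained, between 1569 and 2991 in a library, and 9 barcodes were shared by more than 1 library. 4583 cells in 8 clusters were basal-like, 2071 in 5 clusters were differentiating-like (named by suprabasal markers) and 1816 in 4 clusters were hair follicle-like. Every sample title calls the sorted cells basal cells. The differentiating-like cells are therefore those that passed this sort and need not stand for the whole suprabasal layer. A further 657 cells with no basal marker among their leading genes stayed unnamed, and 76 were Merkel-like. Median UMIs per keratinocyte were 17333 to 21966 in Ctrl and 28068 to 30072 in TKO. Immediate early genes, which cells switch on during handling, stood at a median of 3244 and 2453 CPM (UMIs per 1000000 UMIs of the same cells in that library) in Ctrl 2 and TKO 1 but 525 and 512 in Ctrl 1 and TKO 2, so that this difference did not follow genotype. Setdb1, one of the deleted genes, stood at 71.1 and 57.1 CPM in Ctrl and 39.9 and 43.2 CPM in TKO basal-like cells (log2 change −0.63, SE 0.133, edgeR adjusted p = 0.0239). Suv39h1 (adjusted p = 0.15) and Suv39h2 (adjusted p = 0.424) did not pass in the same edgeR fit. UMIs of the 3' end need not fall in a deleted exon, so these levels check the labels only in part.

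The control regions of 3 members are shown first, because the letters ACGTG and GCGTG form the core to which HIF-1 binds and the members differ in how many they hold. The windows run from 250 bases before to 50 bases after the start in RefSeq's GRCm38.p6 table, and capitals mark ACGTG or GCGTG on either strand, with CACGTG read once on each strand. The table holds 2 windows for Ldha. The one printed (chr7:46845554-46845853, plus strand) held 7 matches and the other (chr7:46846832-46847131, plus strand) held 2. The Slc2a1 window (chr4:119108495-119108794, plus strand) held 2, and the Tpi1 window (chr6:124814109-124814408, minus strand) held 0.
Ldha: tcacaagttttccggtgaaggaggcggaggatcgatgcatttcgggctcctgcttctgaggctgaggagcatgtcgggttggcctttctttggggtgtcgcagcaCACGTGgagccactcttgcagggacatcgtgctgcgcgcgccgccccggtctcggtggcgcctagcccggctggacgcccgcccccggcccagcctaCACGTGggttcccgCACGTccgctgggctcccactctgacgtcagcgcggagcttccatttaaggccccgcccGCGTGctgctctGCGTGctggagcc
Slc2a1: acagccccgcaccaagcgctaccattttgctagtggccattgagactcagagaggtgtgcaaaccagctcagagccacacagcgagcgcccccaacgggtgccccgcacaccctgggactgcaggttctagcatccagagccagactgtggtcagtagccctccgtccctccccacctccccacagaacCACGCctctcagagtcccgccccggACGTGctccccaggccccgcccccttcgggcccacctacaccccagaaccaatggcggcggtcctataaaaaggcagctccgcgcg
Tpi1: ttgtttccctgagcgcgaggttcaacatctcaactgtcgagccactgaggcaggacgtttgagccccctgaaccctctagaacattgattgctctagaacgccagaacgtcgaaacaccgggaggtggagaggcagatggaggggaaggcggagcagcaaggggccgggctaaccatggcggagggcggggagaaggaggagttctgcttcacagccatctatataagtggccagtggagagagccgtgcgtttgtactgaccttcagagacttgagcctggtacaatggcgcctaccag

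The table held 39 windows for 30 of the 32 members. Of these windows, 84.6% held at least 1 ACGTG or GCGTG on either strand, against 43.8% of 32851 windows of the same length. Windows on chromosome 18 were left out. The member windows were also richer in G and C, with a median of 65% against 52.67%, and held a median of 23 CG pairs against 7. Counted by gene, 28 of the 30 members with a window held the letters in at least 1 window, against 46.73% of 27025 genes. So few members lack them that a division by call in TKO cannot show a separation. Among those called in basal-like cells with a window, 17 of 19 held them, all but Gpi1 and Tpi1, and among those tested and not called 10 of 10 held them. A match to 5 letters is a description of the window and says nothing of binding in these cells.

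In basal-like cells all 7 members of lower glycolysis were called as higher in TKO, with 5 of the 8 members of upper glycolysis and 1 of the 5 other hypoxia targets tested. Hk1 and Pfkfb4 had lower values in both TKO libraries, and the libraries of Slc2a1 and Hif1a overlapped between the groups. The 32 genes together took 0.408% of UMIs in each Ctrl library and 0.765% and 0.763% in TKO 1 and TKO 2. An edgeR fit of the UMIs summed per library called 20 of the 31 members tested at an adjusted p under 0.05, all higher in TKO, where 16.1% of all 17313 genes were called and 10.2% were called as higher. The median log2 change was 0.80 over the members and −0.02 over all genes tested. Because these contrasts helped to choose the members, nothing is read from the excess. In 23 members both TKO libraries lay above both Ctrl libraries, as did 31.2% of all genes, and in 4 they lay below, as did 30.1%. Over 14 alternative settings the calls of Slc16a1, Pdk3 and Egln1 were each lost in 7, that of Ankrd37 in 2 and those of Pfkp and Pdk1 in 1 each. Just inside the threshold was Pdk3 and just outside it Vegfa.

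The transporters carry glucose in and lactate out. Slc2a3 (GLUT3, a glucose transporter with high affinity, GRCm39 chr6:122704768-122778599) stood at 5.43 and 4.89 CPM in Ctrl and 71.0 and 55.8 CPM in TKO basal-like cells (log2 change 3.61, SE 0.155). It was the member with the largest change in these cells. Slc2a1 (GLUT1, the main glucose transporter of keratinocytes) stood at 338 and 376 CPM in Ctrl and 302 and 360 CPM in TKO, with overlapping libraries. Slc2a3 was called and Slc2a1 was not (log2 change −0.11, SE 0.131). Slc16a3 (MCT4, which exports lactate) stood at 4.96 and 5.37 CPM in Ctrl and 21.0 and 36.9 CPM in TKO (log2 change 2.49, SE 0.291). Slc16a1 (MCT1, which carries lactate and pyruvate) stood at 67.8 and 66.5 CPM in Ctrl and 90.9 and 84.2 CPM in TKO (log2 change 0.38, SE 0.0915). Both were called, and the libraries of the groups did not overlap for either.

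When each cell was thinned to 5000 UMIs, Slc2a3 had a UMI in 3.04% and 2.10% of Ctrl and in 22.2% and 17.2% of TKO basal-like cells. In differentiating-like cells the shares were 1.08% and 1.43% in Ctrl and 5.65% and 8.08% in TKO. They were lowest in hair follicle-like cells, at 0 of 493 cells in Ctrl 1, which allows a share of up to 0.609%, and 0.429% in Ctrl 2, against 4.55% and 1.92% in TKO. Free RNA adds to such shares, and no cell type taken to lack Slc2a3 was measured here, so they are shares of cells with a UMI and not of cells that express the gene. The share of basal-like cells with a Slc2a1 UMI was 75.7% and 79.4% in Ctrl and 70.9% and 77.6% in TKO, with overlapping libraries. 74 keratinocytes with fewer UMIs were left out.

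Of the 8 members of upper glycolysis, which spends ATP to prepare glucose for cleavage, 5 were called in basal-like cells. Hk2, a hexokinase that traps glucose as its phosphate, stood at 27.4 and 35.3 CPM in Ctrl and 72.9 and 63.2 CPM in TKO (log2 change 1.11, SE 0.15). Its paralogue Hk1 stood at 11.4 and 21.4 CPM in Ctrl and 10.3 and 8.93 CPM in TKO and was not called (log2 change −0.78, SE 0.290). Gpi1, which turns glucose 6-phosphate into fructose 6-phosphate, stood at 126 and 133 CPM in Ctrl and 233 and 219 CPM in TKO. Gpi1 and Hk2 were called, and the log2 changes of the hexokinases had opposite signs.

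The phosphofructokinases make the committed step. Pfkl stood at 38.1 and 35.6 CPM in Ctrl and 90.9 and 87.1 CPM in TKO basal-like cells (log2 change 1.27, SE 0.0969). Pfkp stood at 3.91 and 5.37 CPM in Ctrl and 13.2 and 25.9 CPM in TKO (log2 change 2.07, SE 0.353), with the TKO libraries further apart than those of Pfkl. Pfkfb3, which makes the fructose 2,6-bisphosphate that activates phosphofructokinase, stood at 6.40 and 4.79 CPM in Ctrl and 25.1 and 25.9 CPM in TKO (log2 change 2.18, SE 0.17). Its paralogue Pfkfb4 stood at 8.25 and 10.3 CPM in Ctrl and 7.48 and 6.66 CPM in TKO and was not called. The aldolase Aldoc, at 1.52 and 1.63 CPM in Ctrl and 3.31 and 2.16 CPM in TKO, was not called either.

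All 7 members of lower glycolysis, which earns ATP and ends in lactate, were called in basal-like cells, with log2 changes from 0.94 to 1.42. Tpi1, which interconverts the triose phosphates, stood at 242 and 235 CPM in Ctrl and 516 and 497 CPM in TKO. Gapdh, often used as a loading control, stood at 1138 and 1139 CPM in Ctrl and 2341 and 2035 CPM in TKO (log2 change 0.94, SE 0.0977). Pgk1, the first enzyme of the pathway to make ATP, stood at 207 and 189 CPM in Ctrl and 455 and 536 CPM in TKO. The Ctrl libraries lay close together for each of these and well below both TKO libraries.

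Further along, Pgam1, a phosphoglycerate mutase, stood at 307 CPM in each Ctrl library and 734 and 748 CPM in TKO. Eno1, the enolase of most tissues (GRCm39 chr4:150321073-150337027), stood at 141 and 114 CPM in Ctrl and 323 and 358 CPM in TKO (log2 change 1.42, SE 0.134). Pkm, the pyruvate kinase of most tissues other than liver, stood at 346 and 318 CPM in Ctrl and 740 and 739 CPM in TKO. Lactate dehydrogenase A is the last enzyme of the group. Ldha, whose window is printed above (gene at GRCm39 chr7:46490899-46505061), stood at 331 and 322 CPM in Ctrl and 743 and 816 CPM in TKO (log2 change 1.25, SE 0.107). Eno1 has a retrocopy, Eno1b, that stood at 4.41 and 3.88 CPM in Ctrl and 9.74 and 9.83 CPM in TKO. The level of Eno1 is uncertain where reads match both copies, and how many do was not tested.

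**Figure D1:**
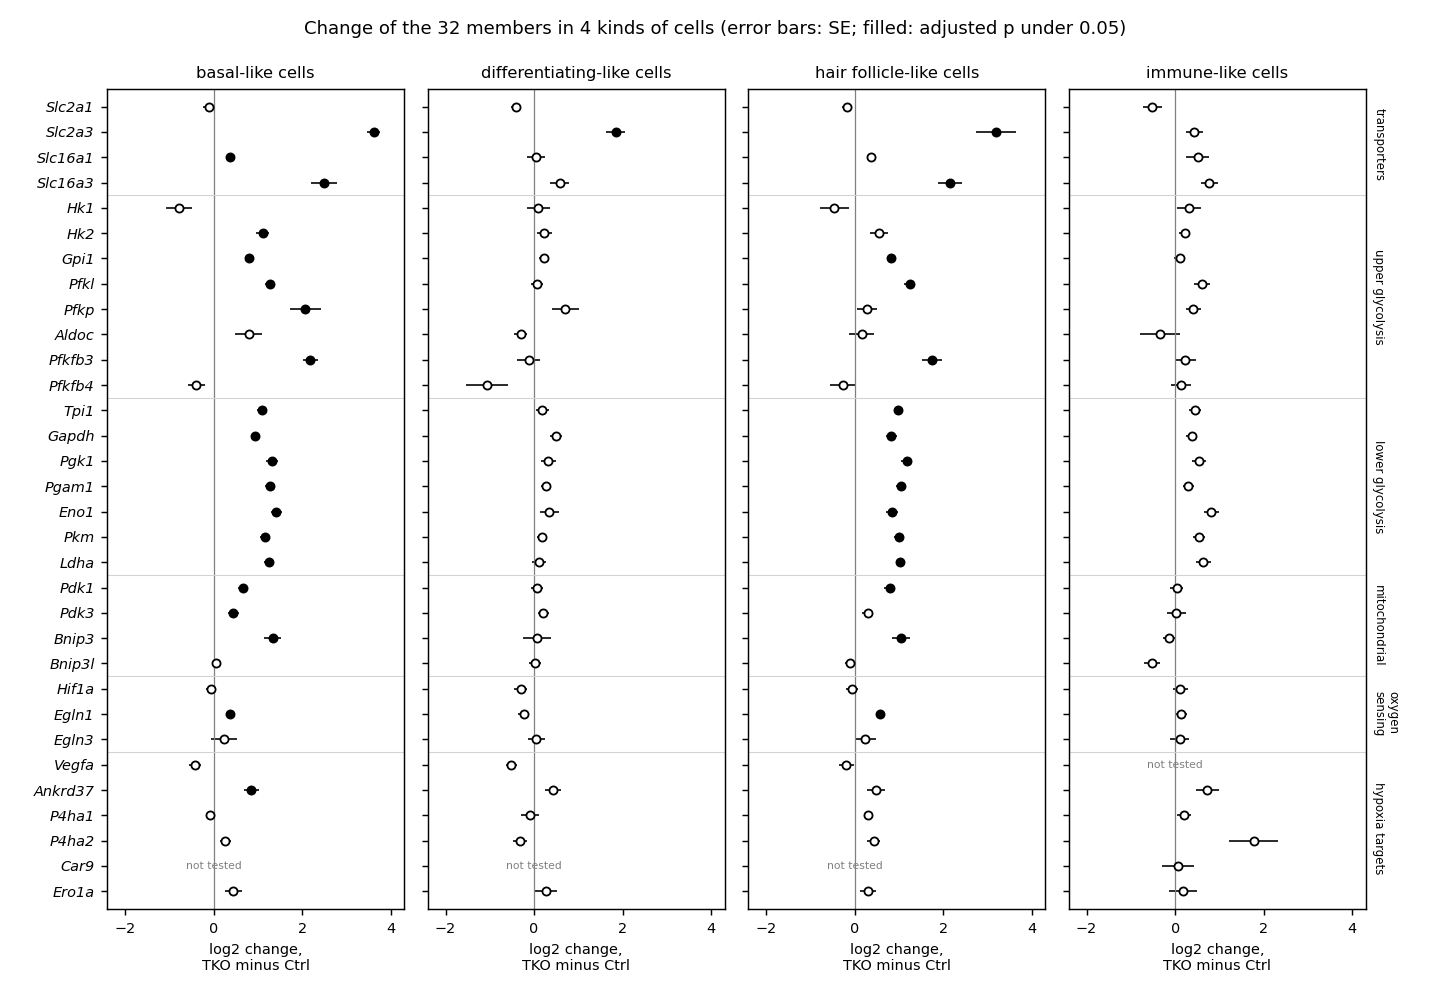
Log2 change in level, TKO minus Ctrl, of each member (rows, grouped by role) in basal-like, differentiating-like, hair follicle-like and immune-like cells, with SE as bars and filled points where the edgeR adjusted p was under 0.05. All 7 genes of lower glycolysis are filled in basal-like and hair follicle-like cells, and in differentiating-like cells Slc2a3 alone is filled.

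Among the mitochondrial members, Pdk1 and Pdk3, kinases that block the entry of pyruvate into the citric acid cycle, were called in basal-like cells. Pdk1 stood at 67.6 and 61.2 CPM in Ctrl and 96.5 and 107 CPM in TKO (log2 change 0.66, SE 0.110), and Pdk3 at 25.8 and 28.9 CPM in Ctrl and 37.6 and 37.2 CPM in TKO (log2 change 0.45, SE 0.116). Bnip3, a mitophagy receptor, stood at 18.5 CPM in each Ctrl library and 38.3 and 55.1 CPM in TKO (log2 change 1.34, SE 0.193). Its paralogue Bnip3l stood at 131 and 135 CPM in Ctrl and 134 and 144 CPM in TKO, with overlapping libraries. Bnip3 was called and Bnip3l was not.

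Of the 3 oxygen sensing members 1 was called. Hif1a, the oxygen-regulated subunit of HIF-1, stood at 109 and 122 CPM in Ctrl and 111 CPM in each TKO library of basal-like cells (log2 change −0.06, SE 0.104). HIF-1α is controlled mainly as a protein, which was not measured here. Egln1, the main prolyl hydroxylase that marks it for destruction, stood at 160 and 155 CPM in Ctrl and 212 and 198 CPM in TKO and was called (log2 change 0.37, SE 0.0919). Egln3, a hydroxylase that is itself a target of HIF-1, stood at 28.0 and 38.4 CPM in Ctrl and 27.5 and 50.5 CPM in TKO, with overlapping libraries. Neither Hif1a nor Egln3 was called.

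Of the other hypoxia targets, 1 of the 5 tested was called in basal-like cells. Ankrd37, a small ankyrin repeat protein, stood at 12.9 and 12.5 CPM in Ctrl and 20.1 and 25.9 CPM in TKO (log2 change 0.85, SE 0.166). Vegfa, which draws in blood vessels, stood at 19.1 and 21.4 CPM in Ctrl and 14.7 and 15.8 CPM in TKO and was not called (log2 change −0.41, SE 0.135). Both TKO libraries of Vegfa lay below both Ctrl libraries. The collagen prolyl hydroxylase subunit P4ha1 stood at 114 and 112 CPM in Ctrl and 104 and 110 CPM in TKO, and P4ha2 at 15.5 and 17.6 CPM in Ctrl and 20.7 and 19.2 CPM in TKO. Ero1a, an oxidase of the endoplasmic reticulum, stood at 26.0 and 35.3 CPM in Ctrl and 37.0 and 46.7 CPM in TKO. None of these was called. Car9, a carbonic anhydrase often used as a marker of hypoxia, had 3 UMIs in each Ctrl library and 7 and 5 UMIs in TKO and was not tested in basal-like cells.

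Genes of the same pathways outside the member list were counted in 4 lists. Over these 4 companion lists 22 of 77 genes tested were called in basal-like cells, 18 higher and 4 lower, where 16.1% of all genes were called, 10.2% as higher and 5.9% as lower. The same shares of all genes stand behind the count of each list that follows. Of glycolysis 3 of 14 were called, all higher. Aldoa, the aldolase of most tissues, stood at 225 and 211 CPM in Ctrl and 503 and 534 CPM in TKO (log2 change 1.25, SE 0.102, edgeR adjusted p = 0.00119). Pgm1, which links glycogen to glycolysis, stood at 12.9 and 13.5 CPM in Ctrl and 29.9 and 25.5 CPM in TKO (log2 change 1.06, edgeR adjusted p = 0.00403). Pgam2, the muscle form of the mutase, had 6 and 7 UMIs in Ctrl and 61 and 28 UMIs in TKO (log2 change 2.62, edgeR adjusted p = 0.0142). Ldhb, the other lactate dehydrogenase subunit, stood at 134 and 146 CPM in Ctrl and 191 and 145 CPM in TKO and did not pass (edgeR adjusted p = 0.25).

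Of the companion hypoxia list 10 of 29 were called in basal-like cells, 6 higher and 4 lower. Plod2, a collagen lysyl hydroxylase, stood at 15.4 and 15.2 CPM in Ctrl and 63.2 and 63.9 CPM in TKO (log2 change 2.05, SE 0.107, edgeR adjusted p = 0.000302). Its paralogue Plod1 stood at 27.0 and 26.2 CPM in Ctrl and 9.37 and 13.4 CPM in TKO (log2 change −1.23, SE 0.191, edgeR adjusted p = 0.00927). The pair moved in opposite directions. Hif3a, a relative of Hif1a, stood at 21.6 and 21.3 CPM in Ctrl and 6.62 and 2.84 CPM in TKO (log2 change −2.18, SE 0.330, edgeR adjusted p = 0.00859). Stc2, a secreted glycoprotein, stood at 2.13 and 0.943 CPM in Ctrl and 4.14 and 6.47 CPM in TKO (edgeR adjusted p = 0.0348). Epas1 (adjusted p = 0.0825), Vhl (adjusted p = 0.344) and Ddit4 (adjusted p = 0.217) did not pass in the edgeR fit.

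The genes that feed and turn the citric acid cycle also included 7 of 27 called, all higher, with smaller changes. Suclg1 stood at 108 and 119 CPM in Ctrl and 165 and 168 CPM in TKO (log2 change 0.55, edgeR adjusted p = 0.0165), and the other 6 had log2 changes of 0.46 to 0.54. Of the pentose phosphate list 2 of 7 were called. Pgd, which makes NADPH, stood at 16.9 and 17.5 CPM in Ctrl and 28.9 and 27.7 CPM in TKO (log2 change 0.72, edgeR adjusted p = 0.00976), and Taldo1, which returns sugars to glycolysis, had a log2 change of 0.46 (edgeR adjusted p = 0.0354).

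**Figure D2:**
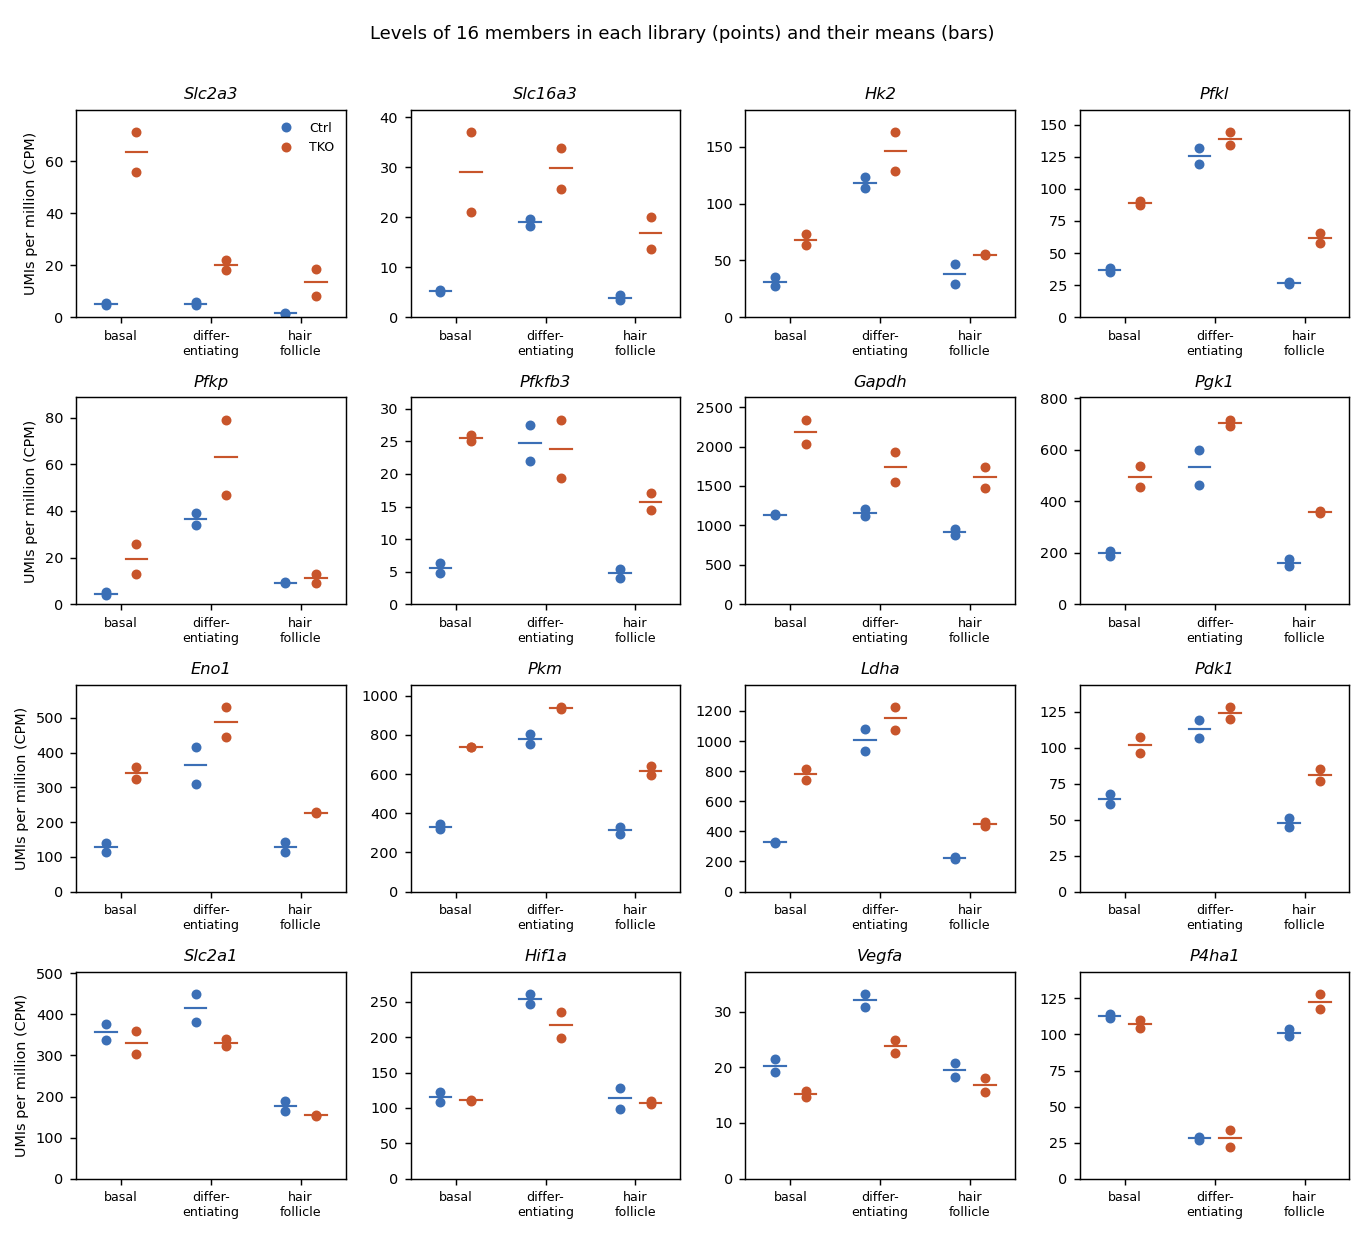
Level in CPM of 16 members in each library (points; blue Ctrl, orange TKO) and the group means (bars), in basal-like, differentiating-like and hair follicle-like cells, on linear axes from 0. Ldha in basal-like cells is at 331 and 322 CPM in Ctrl and 743 and 816 CPM in TKO, and in differentiating-like cells the groups overlap.

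In hair follicle-like cells the genes of lower glycolysis were again higher in both TKO libraries. The member sum was 0.336% and 0.332% of UMIs in Ctrl and 0.571% and 0.544% in TKO. The fit called 15 of 31 members, all higher in TKO, where 7.56% of all genes were called and 3.85% as higher, and the median log2 change was 0.55 over members and −0.01 over all genes. All 7 genes of lower glycolysis were called, with log2 changes from 0.83 to 1.17. Ldha stood at 215 and 233 CPM in Ctrl and 434 and 463 CPM in TKO. Pfkl stood at 25.7 and 27.4 CPM in Ctrl and 65.5 and 57.8 CPM in TKO, and Pfkfb3 at 5.40 and 4.12 CPM in Ctrl and 14.5 and 17.0 CPM in TKO. For these the groups did not overlap. Summed differentiating markers in hair follicle-like cells were 379 and 322 CPM in Ctrl and 110 and 211 CPM in TKO, summed basal markers were 7375 and 7644 CPM in Ctrl and 6074 and 6284 CPM in TKO, and their part in the results was not tested.

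Among the transporters in hair follicle-like cells, Slc2a3 stood at 1.64 and 1.27 CPM in Ctrl and 18.7 and 8.06 CPM in TKO (log2 change 3.20, SE 0.454), resting on 20 and 17 UMIs in Ctrl. Slc16a3 stood at 3.36 and 4.35 CPM in Ctrl and 13.6 and 20.1 CPM in TKO. Slc2a1 and Slc16a1 were not called. Hk2 stood at 29.6 and 46.6 CPM in Ctrl and 54.8 and 55.3 CPM in TKO and was not called. The remaining calls were Gpi1, Pdk1, Bnip3 and Egln1, and none of the 5 other hypoxia targets tested was called.

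The difference between the effect in hair follicle-like and in basal-like cells was called for 3 of 31 members, where 3.59% of all genes were called. Pfkp stood at 9.25 and 9.45 CPM in Ctrl and 9.20 and 13.1 CPM in TKO hair follicle-like cells, so that its TKO effect was smaller there than in basal-like cells (difference −1.74 on the log2 scale, SE 0.237). The effect on Eno1 was also smaller (difference −0.54, SE 0.0848), and P4ha1 stood at 99.0 and 103 CPM in Ctrl and 117 and 128 CPM in TKO (difference 0.42, SE 0.0817). Over 12 alternative settings the call of P4ha1 was lost in 8, that of Pfkp in 2 and that of Eno1 in 1. The other 28 were not called, and without Ctrl 2 the fit called 1 member. In the companion lists 4 of 79 differences were called. They were −0.97 for Plod2 (edgeR adjusted p = 0.00457), 1.07 for Hif3a (edgeR adjusted p = 0.0198), 0.94 for Plod1 (edgeR adjusted p = 0.0262) and −0.63 for Ndrg1 (edgeR adjusted p = 0.0189). The rise of Plod2 and the fall of Hif3a were smaller in hair follicle-like than in basal-like cells.

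In differentiating-like cells the members were high in both genotypes. Their sum took 0.771% and 0.702% of UMIs in Ctrl and 0.889% and 0.892% in TKO. Of 31 members the fit called 1, Slc2a3, where 1.19% of all genes were called and 0.882% as higher, and the median log2 change was 0.10 over members and 0.00 over all genes. Slc2a3 stood at 5.78 and 4.68 CPM in Ctrl and 22.2 and 18.0 CPM in TKO (log2 change 1.84, SE 0.218). The call was lost without Ctrl 1, without Ctrl 2 and with the replicate number as a block, in 3 of 14 settings, and the log2 change was 3.005 with predicted doublets kept.

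The lower glycolysis genes that were called in basal-like cells were not called in differentiating-like cells. All 7 still had positive log2 changes, from 0.11 to 0.49, and 7349 of all 14634 genes had positive changes. Gapdh stood at 1205 and 1122 CPM in Ctrl and 1928 and 1547 CPM in TKO. Pkm stood at 806 and 752 CPM in Ctrl and 944 and 931 CPM in TKO. Ldha stood at 1081 and 933 CPM in Ctrl and 1074 and 1228 CPM in TKO. The groups were apart for Gapdh and Pkm and overlapped for Ldha. Pfkfb3, at 27.4 and 22.0 CPM in Ctrl and 19.3 and 28.3 CPM in TKO, overlapped as well. Only 3 of the 5 differentiating-like clusters held at least 20 cells in every library. In all 3, both TKO libraries lay above both Ctrl libraries for Tpi1, Gapdh, Pgam1, Eno1 and Pkm. For Pgk1 and Ldha they did so in 2. How many other genes have this pattern was not counted.

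The log2 change in differentiating-like cells lay below that in basal-like cells for 30 of the 31 members, as for 8539 of all 18088 genes. Of the negative differences of members 8 were called, where 0.199% of all genes were called in either direction. On the log2 scale the differences were −2.32 (SE 0.229) for Pfkfb3, −1.87 (SE 0.208) for Slc16a3, −1.74 (SE 0.179) for Slc2a3 and −1.19 (SE 0.123) for Pfkl. They were −1.13 for Ldha, −1.06 for Eno1, −0.98 for Pgam1 and −0.95 for Pkm, with SEs from 0.0728 to 0.105. The companion Aldoa had a difference of −1.07 (SE 0.0907, edgeR adjusted p = 0.0361). Hk1 was the member with a positive difference, 0.79 (SE 0.338), and it was not called. Without Ctrl 1, and likewise without Ctrl 2, 0 of the 8 were called. The 9 differentiating markers summed in differentiating-like cells to 47965 and 42458 CPM in Ctrl and 21003 and 36426 CPM in TKO, and so were lower in TKO, and their part in these differences was not tested. For Slc2a3 the difference was −0.04 with predicted doublets kept. That setting adds the doublets to the sums and also clusters all cells again, and which of these moved the value was not tested. In that setting Ctrl 1 had 51 Slc2a3 UMIs in differentiating-like and 247 in basal-like cells, against 133 and 150 with doublets removed.

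In Ctrl the members were already higher in differentiating-like than in basal-like cells. 26 of 31 were called as higher and 3 as lower, where 24.6% of all genes were called as higher and 25.8% as lower. The layers were defined by clustering these same cells, so this is a description. Aldoc had the largest log2 difference, 4.18, followed by Pfkp at 3.20, Bnip3 and Pfkfb3 at 2.36 each and Hk2 at 2.14. Ldha was higher by 1.83 and Hif1a by 1.35, and each of these genes was higher in both Ctrl libraries. Slc16a1 (−0.49), Pfkfb4 (−0.95) and P4ha1 (−1.81) were lower in both. Gapdh differed least among the called genes, by 0.24, and was higher in 1 of the 2 libraries by CPM. Of these 29 calls 24 held in each of 12 alternative settings, and that of Gapdh was lost in 3.

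The TKO basal-like level could then be set between the Ctrl layers. The study describes aberrant clusters found in TKO alone, and such cells were not told apart within the classes used here. For 12 members both TKO basal-like values lay above both Ctrl basal-like values and below both Ctrl differentiating-like values, as did 5.1% of all 18088 genes, and these members included Hk2, Pfkl, Pfkp, Tpi1, Pkm, Ldha and Bnip3. For 7 members, Slc2a3, Slc16a1, Slc16a3, Gpi1, Gapdh, Pgam1 and Pdk3, the TKO basal-like level lay above both Ctrl layers, as did 21.5% of all genes. Since members were chosen with their TKO values in view, nothing is read from these shares. Hk1 and Vegfa lay below both layers, Pfkfb4 and P4ha1 lay below the Ctrl basal-like and above the Ctrl differentiating-like values, and the other 8 members overlapped 1 of the layers. The summed differentiating markers in basal-like cells were 1009 and 812 CPM in Ctrl and 387 and 591 CPM in TKO, and were thus no higher in TKO. Summed basal markers in these cells were 18281 and 20861 CPM in Ctrl and 13418 and 17371 CPM in TKO, and their part in the results was not tested.

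Against basal-like cells, Ctrl hair follicle-like cells held less of most members. 19 of 31 were called as lower and 3 as higher, where 19% of all genes were called as lower and 16.6% as higher. Slc2a3 was lower by 2.01 on the log2 scale, Egln3 by 1.48 and Slc2a1 by 1.19, in both Ctrl libraries. Aldoc was higher by 1.28, Pfkp by 0.84 and Bnip3l by 0.18. Of these 22 calls 14 held in each of 12 alternative settings, while those of Bnip3, Hif1a and Ero1a were lost in 7 each, Slc16a3 in 6, Bnip3l in 5, Pfkp in 2 and Aldoc and Pkm in 1 each. The order of the member sum over the Ctrl layers was differentiating-like, basal-like and hair follicle-like, and the Ctrl libraries of neighbouring layers did not overlap in it.

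The higher level in TKO basal-like cells was seen across their clusters. Each of the 8 clusters held at least 20 cells in every library. Of the 20 members called in basal-like cells, 14 had both TKO libraries above both Ctrl libraries in all 8 clusters, and 19 had the higher mean in TKO in all 8, Slc16a1 being the exception with 7. Among all 1766 genes called as higher in these cells, 35.4% had the first pattern and 75.9% the second. All of these genes were called on the sum of the same clusters, so the counts are a description. The highest ratios of Ldha and Eno1 came from cluster 3, led by the mitochondrial transcript mt-Rnr1, where the Ctrl levels were low. In it Ldha stood at 25.4 and 55.3 CPM in Ctrl and 175 and 176 CPM in TKO, and Eno1 at 28.6 and 21.6 CPM in Ctrl and 102 and 84.0 CPM in TKO. In the cluster with the most cells, led by dividing-cell genes such as Top2a, Ldha stood at 313 and 330 CPM in Ctrl and 823 and 849 CPM in TKO. Pfkfb3 was listed at 0 in Ctrl 1 of cluster 17, and Slc2a3 in Ctrl 2 of cluster 11. Since clusters came from the same cells, they show the spread of the pattern and are not replicates.

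**Figure D3:**
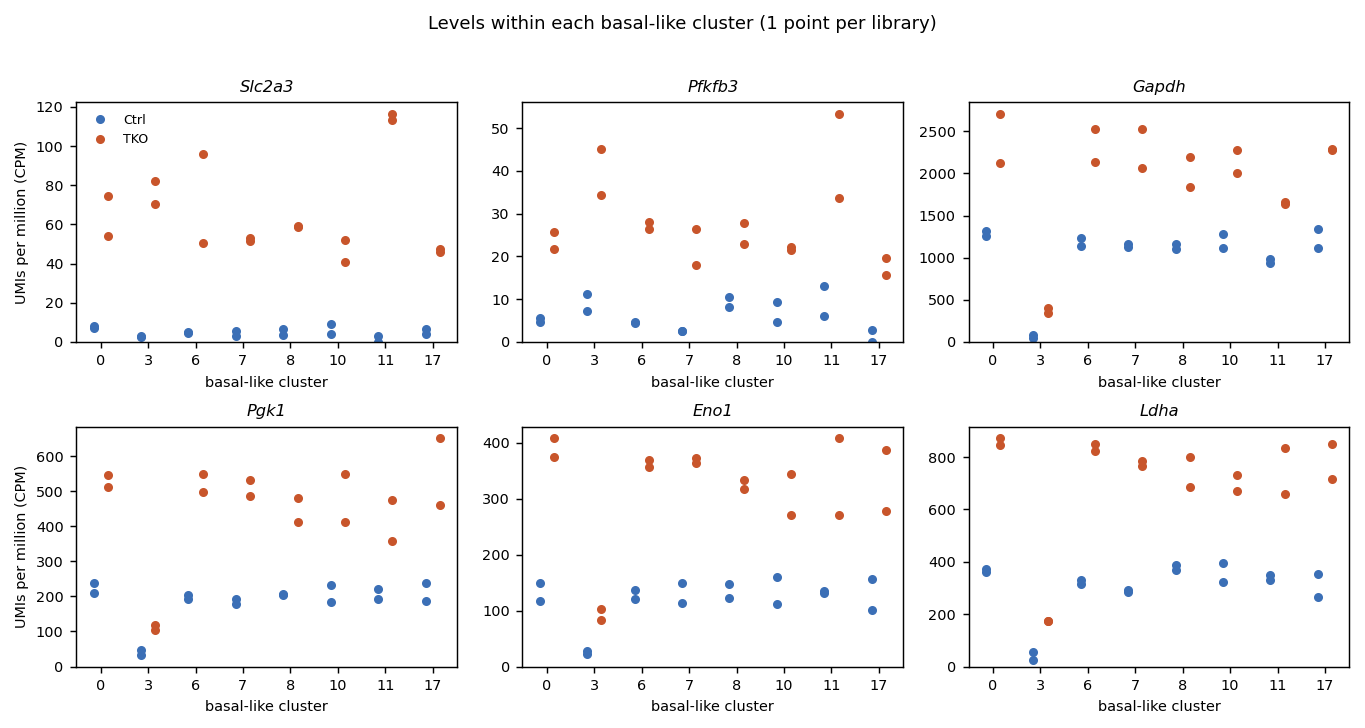
Level in CPM of 6 members within each of the 8 basal-like clusters, 1 point per library (blue Ctrl, orange TKO), on linear axes from 0. The TKO points lie above the Ctrl points in all 8 clusters for each of the 6 genes.

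Recombination was mosaic, so TKO basal-like cells were divided by whether they held a UMI of any of 4 transcripts that are nearly silent in Ctrl (Npffr1, Gm11884, 1700030N03Rik and Gm42653), after thinning to 5000 UMIs a cell. In Ctrl 3 of 1251 and 4 of 1473 basal-like cells held one. In TKO 1 there were 607 cells with and 359 without, and in TKO 2 489 with and 364 without. The absence of a UMI does not show that a cell kept its genes, as such transcripts are sparse. For all 20 members called in basal-like cells, both TKO libraries lay above both Ctrl libraries in the cells with these transcripts and also in the cells without them, as for 81.3% of the 1766 genes called as higher. The 20 were called on the sum of these same cells, so this is a description.

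Within TKO libraries, 11 of the 20 members were higher in cells with the transcripts in both libraries, as were 51.9% of the genes called as higher. None of the 20 was lower in both, as were 13.8% of those genes, and 9 differed in sign between libraries. The ratio of with to without had a median of 1.09 and ran from 0.628 to 1.72. Eno1 stood at 319 CPM with and 300 CPM without in TKO 1, at 358 and 330.2 CPM in TKO 2, and at 141 and 112 CPM in the Ctrl cells without.

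**Figure D4:**
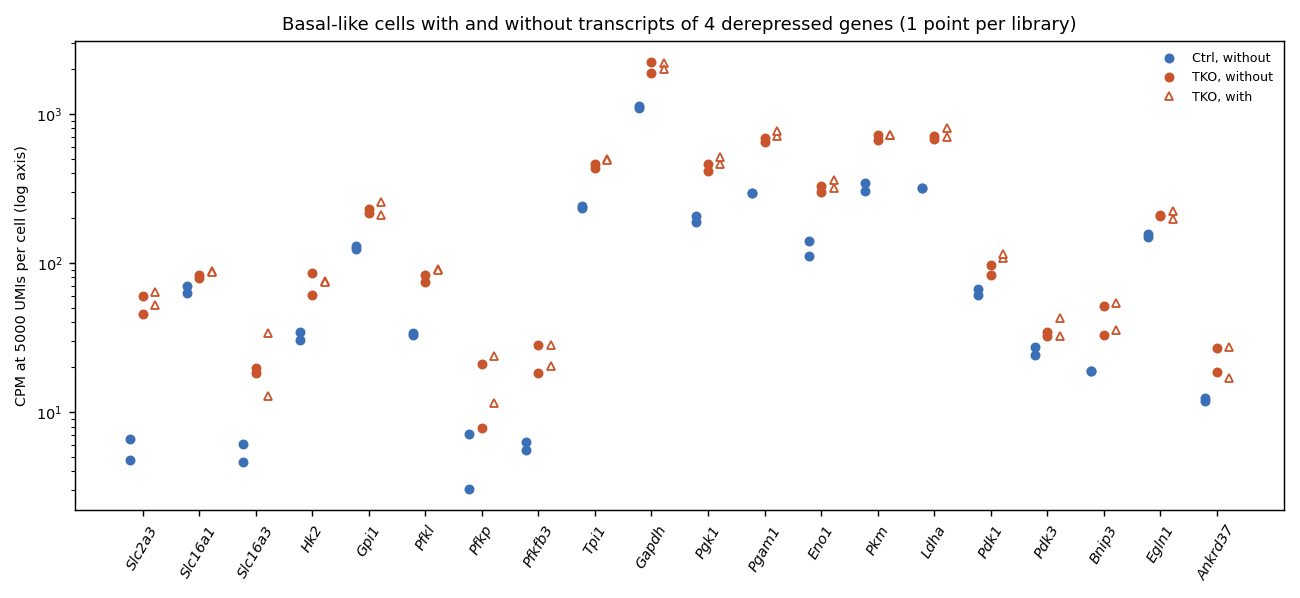
Level in CPM at 5000 UMIs per cell (log axis) of the 20 members called in basal-like cells, 1 point per library, for Ctrl cells and TKO cells without the 4 derepressed transcripts (filled circles, blue and orange) and TKO cells with them (open triangles). Both kinds of TKO cells lie above Ctrl for each gene.

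Cells outside the epidermis came along in the sort and share the embryo with the keratinocytes, and they were examined after the results above were known. The immune-like cells numbered 81 and 127 in Ctrl and 285 and 424 in TKO, and keratin 14 is not expected to drive the recombinase in them. They pool all clusters named immune-like, so their values need not describe 1 cell type. How the mix of immune cells differs between libraries is not given here. Setdb1 stood at 104 and 117 CPM in Ctrl and 101 and 100.05 CPM in TKO immune-like cells (log2 change −0.23, edgeR adjusted p = 0.789). The member sum took 0.376% and 0.363% of UMIs in Ctrl and 0.518% and 0.461% in TKO. edgeR called 0 of 31 members, where 0.0331% of all 12078 genes were called, and DESeq2 called 1. At an unadjusted edgeR p under 0.05, 13 members passed, 12 of them higher in TKO, where 6.69% of all genes passed. In 21 of 31 members both TKO libraries lay above both Ctrl libraries, as did 26% of all genes.

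All 7 genes of lower glycolysis had positive log2 changes in immune-like cells, from 0.29 to 0.82, and 5963 of all 12078 genes had positive changes. Eno1 stood at 95.7 and 72.0 CPM in Ctrl and 164 and 149 CPM in TKO, and Ldha at 223 and 213 CPM in Ctrl and 418 and 303 CPM in TKO. Both TKO libraries were above both Ctrl libraries for these, and the difference from the change in basal-like cells was not tested. The 6 keratins summed in immune-like cells to 825 and 736 CPM in Ctrl and 97.5 and 123 CPM in TKO, and so were lower in TKO. Slc2a3 stood at 17.1 and 21.0 CPM in Ctrl and 28.2 and 26.5 CPM in TKO.

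The fibroblast-like cells numbered 103 in each Ctrl library and 182 and 125 in TKO. The member sum took 0.240% and 0.234% of UMIs in Ctrl and 0.332% and 0.262% in TKO. edgeR and DESeq2 both called 0 of 30 members, where edgeR called 0% of all genes, and 4 members passed at an unadjusted edgeR p under 0.05, where 4.53% of all genes passed. 25 of the 30 log2 changes were positive, as were 5559 of those of all 11447 genes. The median over the members was 0.35, and the changes of the 7 genes of lower glycolysis ran from 0.33 to 0.65. In 12 of the 30 members both TKO libraries lay above both Ctrl libraries, as did 17.6% of all genes.

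Markers of other cell types were also summed in basal-like cells. The 6 immune markers summed to 2.68 and 4.17 CPM in Ctrl and 6.83 and 7.83 CPM in TKO, with Ptprc at 0 in Ctrl 2 and TKO 1. The 5 endothelial markers summed to 17.2 and 18.1 CPM in Ctrl and 37.0 and 25.9 CPM in TKO, with Cldn5 at 0 in 3 of the 4 libraries. Both sums were higher in TKO. The 7 fibroblast markers summed to 1209 and 1389 CPM in Ctrl and 1004 and 833 CPM in TKO, with Twist2 at 0 in TKO 2. Dcn made up nearly all of this, at 1201 and 1378 CPM in Ctrl and 993 and 827 CPM in TKO. The 8 Merkel markers were lower in TKO, at 53.4 and 25.1 CPM in Ctrl and 20.2 and 15.8 CPM in TKO basal-like cells and at 41.5 and 88.3 CPM in Ctrl and 23.7 and 15.9 CPM in TKO hair follicle-like cells. Over all keratinocytes, which include the Merkel-like cells, they stood at 193 and 174 CPM in Ctrl and 22.6 and 15.5 CPM in TKO. In hair follicle-like cells the fibroblast sum was 1802 and 1497 CPM in Ctrl and 1724 and 1918 CPM in TKO, and the immune sum was 12.5 and 14.5 CPM in Ctrl and 34.4 and 34.6 CPM in TKO. In differentiating-like cells the endothelial sum was 6.87 and 10.00 CPM in Ctrl and 27.0 and 24.2 CPM in TKO, and the sum of 6 melanocyte markers 5.78 and 6.74 CPM in Ctrl and 15.7 and 18.5 CPM in TKO. The part of these markers in the results was not tested. The 6 erythroid markers summed to 12.5 to 21.1 CPM in 3 libraries of hair follicle-like cells and to 379 CPM in TKO 2.

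When all keratinocytes were summed together, 7 of 32 members were called, all higher in TKO, where 6.58% of all genes were called and 4.13% as higher. These were Slc2a3, Slc16a3, Hk2, Gpi1, Gapdh, Pgam1 and Pkm. Of the 7, Slc2a3 alone was called in each of 14 alternative settings, and the calls of Hk2 and Pkm were lost in 6 each. With the replicate number as a block 1 member was called, where 561 of 19988 genes were called. Sums over all keratinocytes mix the layers, and differentiating-like cells, in which the members are high, made up 29.3% and 19.0% of keratinocytes in Ctrl and 15.8% and 23.5% in TKO. In such sums, fewer cells of a type and less RNA per cell cannot be told apart.

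The 32 members lie on 15 chromosomes. 22 of them overlap another annotated gene in GENCODE M39, 21 on the opposite strand and 5 on the same strand, and Slc2a3, Slc2a1, Slc16a1, Pkm and Pfkfb3 are the latter 5. These are overlaps of gene bounds, and whether the counted reads fall in shared exons was not tested. Paralogue pairs were compared side by side by their log2 changes in basal-like cells. These were −0.78 for Hk1 and 1.11 for Hk2, 2.18 for Pfkfb3 and −0.39 for Pfkfb4, −0.11 for Slc2a1 and 3.61 for Slc2a3, and 1.34 for Bnip3 and 0.06 for Bnip3l. In each of these pairs 1 paralogue was called and the other was not. The changes were 1.27 for Pfkl and 2.07 for Pfkp, 0.38 for Slc16a1 and 2.49 for Slc16a3, and 0.66 for Pdk1 and 0.45 for Pdk3, with both members of each pair called. Egln1 was called at 0.37 and Egln3, at 0.23, was not, and neither P4ha1 (−0.08) nor P4ha2 (0.27) was called.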

How the data were processed

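Each of the 4 libraries came as a matrix of counts (UMIs of each gene in each barcode), which the authors made with Cell Ranger (7.1.0 per the file headers) on GRCm39 and deposited with no normalization. The study's methods name another Cell Ranger version and describe Seurat, Harmony and removal of contaminating cells by markers. Here cells with at least 2000 genes and at most 10% mitochondrial UMIs were kept, 0.8% of cells per 1000 barcodes were removed as predicted doublets, and cells were clustered with scanpy 1.11.5 (2000 variable genes, 30 components aligned by library, Leiden resolution 1). Keratinocytes were clustered again without the 1316 genes called between genotypes over all keratinocytes. A cluster was named from at least 3 markers, and the layers were not checked against the study's own cell labels. The study describes aberrant basal and aberrant differentiating clusters found in TKO alone. Into which classes those cells fell here was not tested.

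UMIs were summed per library and class, and tested with edgeR 4.0.16 (TMM factors, its expression filter, quasi-likelihood test) with Benjamini-Hochberg adjustment over all genes tested and a threshold of 0.05. Layers were compared in a fit with the library as a term, for Ctrl and for the difference of the genotype effect. DESeq2 1.42.0, other factors, other cells and leaving out each library were tried as alternatives. Each library is 1 embryo, so n = 2 per genotype and the tests measure the spread of these embryos, and CPM has counting error besides. Replicate numbers gave no pairing (deviations of same-numbered libraries correlated at −0.24 over 19988 genes). No column of per-sample values was left out.

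The members and lists were chosen with earlier results of these data known. All 32 members are named, along with up to 4 called genes of each companion list and fit with the largest change, and Aldoa, Ldhb, Epas1, Vhl and Ddit4 in any case. Members carry no p in keratinocyte classes. Promoter windows are from RefSeq on GRCm38.p6, read by symbol, and coordinates of genes are those of GENCODE M39 on GRCm39.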

Additional observations from a re-analysis of the deposited data

Results flagged for a closer look

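The genotype effect differed between layers, by the interaction term of the edgeR fit, for 8 members in differentiating-like against basal-like cells. On the log2 scale the differences were −2.32 for Pfkfb3, −1.87 for Slc16a3, −1.74 for Slc2a3, −1.19 for Pfkl, −1.13 for Ldha, −1.06 for Eno1, −0.98 for Pgam1 and −0.95 for Pkm, each with the smaller effect in differentiating-like cells. Without Ctrl 1, and likewise without Ctrl 2, 0 of these 8 were called, and the Slc2a3 difference was −0.04 with predicted doublets kept. In hair follicle-like against basal-like cells it differed for 3 members, by −1.74 for Pfkp, −0.54 for Eno1 and 0.42 for P4ha1, whose call was lost in 8 of 12 alternative settings. The members were chosen with these contrasts in view, so these values are a description.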

How the results depend on the processing

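Across 14 alternatives, 14 of the 20 members called in basal-like cells and 10 of the 15 in hair follicle-like cells were called each time, as were 1 of the 7 over all keratinocytes (Slc2a3) and 0 of the 1 in differentiating-like cells, and no called log2 change of a member between genotypes changed sign. 1 layer difference reversed: Slc2a3 in differentiating-like against basal-like Ctrl cells was −1.49 with doublets kept and 0.24 without. Counts of calls moved by more than 1.5 times in the following, and the cause was not tested. Over all keratinocytes members went from 7 to 15 with DESeq2, 4 with no expression filter and 12 at 5000 UMIs per cell. Companion genes there went from 6 to 16 with DESeq2. The calls among all genes moved too, from 1316 of 19988 to 2654 of 19988 with DESeq2. They were 752 of 33970 with no expression filter and 941 of 15473 at 5000 UMIs per cell. With no expression filter, calls went to 3 members and 6 companion genes (from 1 and 2) in differentiating-like cells. They went to 17 companion genes (from 9) in hair follicle-like cells and 5 members (from 0) in immune-like cells, where DESeq2 gave 1. Among all genes the unfiltered fit called 1832 of 28085 (from 174 of 14634) in differentiating-like cells. In hair follicle-like cells it called 2729 of 28558 (from 1162 of 15375). At 5000 UMIs per cell companion calls went from 22 to 13 in basal-like and from 9 to 4 in hair follicle-like cells. Those among all genes went from 2787 of 17313 to 1451 of 13072 and from 1162 of 15375 to 675 of 11353. Of the members whose effect differed between layers, 8 in differentiating-like cells became 19 with no filter and 18 with components not aligned by library. The 3 in hair follicle-like cells became 1 at 5000 UMIs per cell and 1 without cells high in immediate early genes. The calls among all genes in these layer fits, and in immune-like cells, are not given here for the alternative settings.

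With 1 library left out in turn, the lone library is assumed to vary like the other group. The calls among all genes moved in these fits as well, so the ranges below do not describe the members alone. Member calls then ranged from 15 to 17 in basal-like, 12 to 16 in hair follicle-like, 0 to 3 in differentiating-like, 0 to 1 in immune-like cells and 1 to 7 over all keratinocytes, and companion calls from 9 to 20, 3 to 16, 0 to 3 and, over all keratinocytes, 1 to 6. Calls of layer differences in the effect ranged from 0 to 15 for differentiating-like and 1 to 3 for hair follicle-like cells, the 0 without Ctrl 1 and without Ctrl 2.

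The replicate numbers do not pair the libraries. With the replicate number as a block, member calls were 17 in basal-like, 15 in hair follicle-like and 0 in differentiating-like cells. Over all keratinocytes 1 member and 3 companion genes were called. Among all genes that block called 2532 of 17313 in basal-like, 949 of 15375 in hair follicle-like and 105 of 14634 in differentiating-like cells. Over all keratinocytes it called 561 of 19988. The crossed pairing, added after seeing the data, gave 19 members and 18 companion genes over all keratinocytes and 4 companion genes in differentiating-like cells. Among all genes it called 3233 of 19988 over all keratinocytes and 963 of 14634 in differentiating-like cells. The fits between layers already hold the library as a term.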

Other observations

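Fbp2, which runs a step of glycolysis in reverse, had 3 and 2 UMIs in Ctrl and 46 and 77 UMIs in TKO differentiating-like cells (edgeR adjusted p = 0.0201), and 0 or 1 UMI in each library of basal-like cells. In immune-like cells it had 83 UMIs in TKO 1 and at most 3 in any other library.

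Fbp1, the liver form of the same enzyme, had 13 and 15 UMIs in Ctrl and 1 and 0 UMIs in TKO hair follicle-like cells (edgeR adjusted p = 0.044).

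In differentiating-like cells Plod2 was the other of the 2 companion genes called among 74 tested, where 1.19% of all genes were called. It stood at 16 and 15.2 CPM in Ctrl and 59.7 and 43.3 CPM in TKO (edgeR adjusted p = 0.0315).

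In hair follicle-like cells 9 of 75 companion genes were called, 7 higher and 2 lower in TKO, where 7.56% of all genes were called and 3.85% as higher. Higd1a, a mitochondrial protein induced by hypoxia, stood at 71.0 and 62.7 CPM in Ctrl and 121 and 132 CPM in TKO (edgeR adjusted p = 0.00694). Fh1, the fumarase of the citric acid cycle, stood at 44.0 and 40.6 CPM in Ctrl and 60.9 and 57.4 CPM in TKO (edgeR adjusted p = 0.0418). Mif, a cytokine, stood at 287 and 239 CPM in Ctrl and 420.2 and 433 CPM in TKO (edgeR adjusted p = 0.019). Aldoa (log2 change 1.09), Pgm1 (1.196) and Plod2 (1.05) were also higher, and Hif3a (−1.202) was lower.

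Over all keratinocytes 6 of 81 companion genes were called, where 6.58% of all genes were called, so the share is near that of all genes. Aldoa, Pgam2, Fbp2 and Plod2 were higher in TKO, and Plod1 and Hif3a were lower.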
